A study of Arabidopsis thaliana with 58 samples.

Results

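Mature leaves of Arabidopsis thaliana were compared between plants that had been without magnesium (Mg) for 3 days and control plants that had kept their Mg. The 7 libraries of this comparison were picked by their labels, as all libraries of mature leaves on day 3, and they are 7 of the 58 libraries of the study. They comprise 4 control libraries (1.5 mM Mg) and 3 Mg-deficient libraries (0 mM Mg). The table lists 19506 genes, of which 15079 were tested, those whose signal averaged 5 or more over the 7 libraries.

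All plants were wild type Columbia-0, raised in hydroponic culture on MGRL nutrient solution, and were 13 days old at harvest. Both groups had started on the full solution, and only the Mg-deficient plants were then moved to a solution with no added Mg. Sodium sulfate took the place of the magnesium sulfate in that solution, so the groups also differ in sodium, and the parts of Mg and sodium cannot be told apart. The leaves taken were the first pair of rosette leaves. Each library came from a composite of 2 or 3 plants, and libraries had been selected among biological replicates for the quality of their RNA. The study asked which genes respond to Mg withdrawal in old leaves, young leaves and roots, and at what stage.

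Magnesium sits at the centre of chlorophyll, bridges ATP to most of the enzymes that use it, and activates Rubisco, the enzyme that fixes carbon. It is mobile in the phloem, so old leaves can lose it to growing tissue when supply stops. In the cell much of it is stored in the vacuole beside calcium, and exchangers in the vacuolar membrane, the CAX family, trade calcium and some other metals for protons. Calcium signals are read by proteins with EF-hands, loops that bind calcium and change the shape of the protein.

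The signal is the read count of a gene adjusted by the authors to a common library size. Undoing that adjustment, with an assumed dispersion of 0.05, gave whole reads that returned every value within a relative tolerance of 0.001. This check is weak for large signals, where the tolerance spans a good part of a read. The 7 libraries so recovered held between 1726185 and 2214773 reads. Libraries differed in how they resembled the others. Pearson correlation of log2(signal + 1) over the genes tested ran from 0.72 to 0.92 among the 21 pairs of libraries. Mg-deficient replicate 2 correlated with the other libraries at 0.72 to 0.80, lay alone on the first principal component (40.5% of the variance), and held reads for 14275 genes where the others held reads for 16042 to 18155. Control replicate 1 lay alone on the second component (20.1%). The 10 pairs among the 5 other libraries correlated at 0.85 to 0.92 regardless of treatment. The 5 mesophyll markers summed to 3.11 to 4.74% of the signal. Of 7 root markers, CASP2, COBL9, EXPA7 and RHD6 had no row in the table, and the other 3, mostly GLP5, summed to a signal of 113 to 172 in control libraries and 148 to 187 without Mg.

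**Figure D1:**
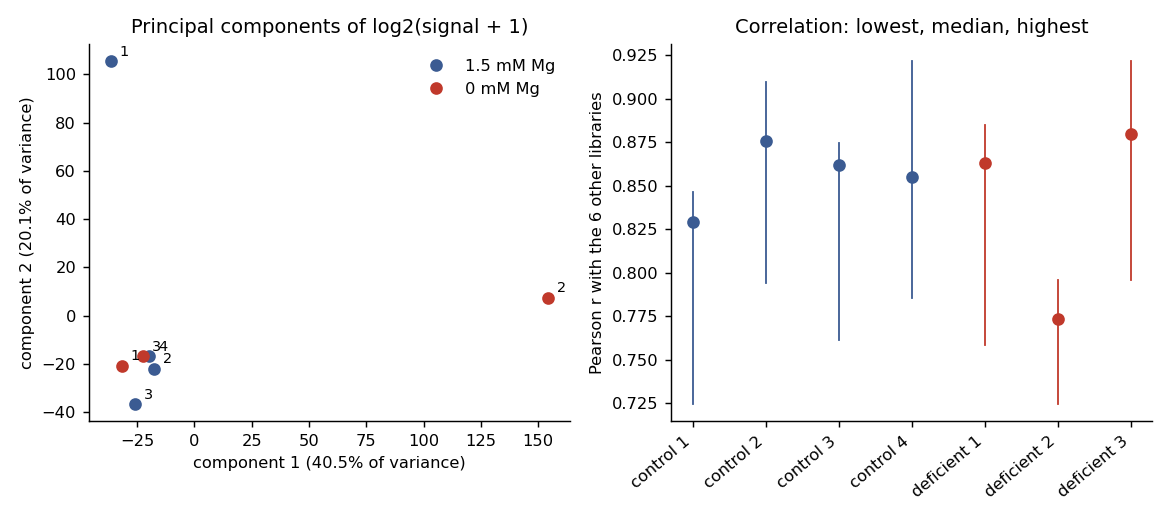
Left, the 7 libraries on the first and second principal components of log2(signal + 1), coloured by treatment and numbered by replicate. Right, the lowest, median and highest Pearson correlation of each library with the 6 others. Mg-deficient replicate 2 and control replicate 1 stand apart, and the other 5 libraries lie together whatever their treatment.

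Few genes reached the thresholds after 3 days. The threshold used first is the unadjusted one of the study. At p under 0.01, 20 genes were higher in Mg-deficient leaves (0.133% of the genes tested) and 28 were lower (0.186%), together 48 genes or 0.318%. No gene passed an adjusted p under 0.05 in limma (0%). Limma with voom weights on the same signal passed none either, and unadjusted p fell under 0.05 for 493 and 469 genes in the respective fits (3.27% in the first). The shares of 0.318% and 3.27% are below the 1% and 5% that thresholds of 0.01 and 0.05 give on average when nothing changes. The genes KIC and CAX1 stood far ahead of the rest, each with an adjusted p of 0.167, and the adjusted p of all other genes was 0.98 or above. The median log2 fold change of all genes was -0.04. Signals of the groups did not overlap for 329 genes that were higher (2.18%) and 401 that were lower (2.66%).

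The data bounded the size of change well for abundant genes and poorly for rare ones. The 95% interval of the log2 fold change reached a median of 0.57 to either side for genes with a mean signal of 100 to 1000, and 1.85 for genes with a mean of 5 to 20. It lay wholly within a factor of 2 in either direction for 4099 genes (27.2%). That share was 95.4% above a mean of 1000, 85.3% between 100 and 1000, 22.3% between 20 and 100, and 0% below 20.

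**Figure D2:**
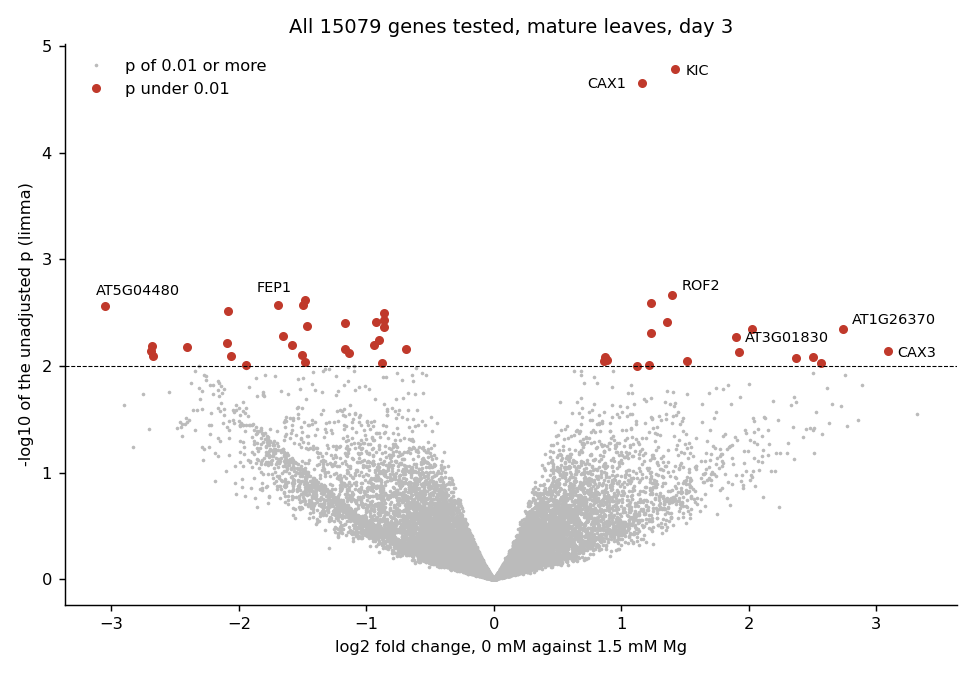
Log2 fold change (horizontal) against -log10 of the unadjusted p from limma (vertical) for the 15079 genes tested, with the 48 genes of p under 0.01 in red and the dashed line at that threshold. KIC and CAX1 lie well above all others, and most other red points lie close to the line.

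The genes of smallest p, though not of largest fold change, were genes of calcium handling. KIC (AT2G46600), annotated as a calcium-binding EF-hand family protein, had a signal of 337, 294, 397 and 212 in control replicates 1 to 4 and of 671, 1008 and 789 in Mg-deficient replicates 1 to 3. Every Mg-deficient library was above every control library, with means of 309.8 ± 77.7 (SD, n = 4) and 822 ± 171 (SD, n = 3). The fold change was 2.68, or 1.42 ± 0.24 on the log2 scale (SE; 95% interval 0.91 to 1.93).

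CAX1 (AT2G38170), the main calcium and proton exchanger of the leaf vacuole, had a signal of 988, 775, 702 and 674 in control replicates and of 1581, 1838 and 1796 in Mg-deficient ones. The groups were again wide apart, at 785 ± 142 (SD, n = 4) and 1738 ± 138 (SD, n = 3). The log2 fold change was 1.16 ± 0.20 (SE), a 2.23-fold difference. The result did not hang on the library that stands apart, as the log2 fold changes without Mg-deficient replicate 2 were 1.12 for CAX1 and 1.27 for KIC. Over the removal of each library in turn they ran from 1.09 to 1.28 and from 1.25 to 1.56. Their adjusted p moved more than their size. It was 0.0195 for both when libraries were weighted by their agreement with the fit, and 0.0493 for KIC alone when no gene was filtered out. For both genes it was 0.999 without Mg-deficient replicate 2 and 0.995 without control replicate 4.

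CAX3 (AT3G51860), a close relative of CAX1 that works beside it in the vacuolar membrane, had the largest fold change of the 48 genes. Its signal was 305, 21.9, 196 and 2.29 in control replicates and 838, 372 and 194 in Mg-deficient ones. The control libraries spanned a wide range, with replicates 1 and 3 high and 2 and 4 low, and the lowest Mg-deficient value fell just below the second highest control. The log2 fold change was 3.09 ± 1.02 (SE), with an interval from 0.95 to 5.24. Left-out libraries moved it to between 1.82 (without control replicate 4) and 4.0 (without control replicate 1), with p under 0.05 in each case. Over all alternatives to the main fit its p in limma rose to 0.147 at most. CML41, a calmodulin-like EF-hand protein, was also high in control replicates 1 and 3, at 111 and 79.8, and low in replicates 2 and 4, at 5.83 and 0.15. In Mg-deficient libraries it read 178, 20.2 and 25.7, and its log2 fold change was 1.51 (95% interval -0.94 to 3.96).

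A pair of other genes annotated as EF-hand family proteins were among the 20 higher genes. AT3G01830 read 6.50, 5.29, 12.3 and 7.32 in control and 34.0, 34.4 and 24.7 in Mg-deficient replicates, a log2 fold change of 1.90 ± 0.60 (SE) with no overlap. AT2G41410 read 326, 280.0, 475 and 191 in control and 788, 548 and 387 in Mg-deficient replicates, a log2 fold change of 0.87 ± 0.29 (SE) with overlap. AT2G41410 was picked out after its values were seen.

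The list of EF-hand calcium sensors, which holds calmodulins and calmodulin-like proteins and was drawn up with KIC known to be high, had 17 members tested. KIC and AT3G01830 were higher at p under 0.01, against 0.133% of all genes, and no member was lower even at p under 0.05. The median log2 fold change of the list was 0.01, beside -0.04 for all genes. The intervals of 11 members lay within a factor of 2.

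Of 12 calcium exchangers and pumps tested, 7 had log2 fold changes above 0, beside 7000 of all 15079 genes. CAX1 and CAX3 were the members higher at p under 0.01, against 0.133% of all genes. This list too was drawn up with earlier results of these data known, so the count is a description. ACA8, a calcium pump of the plasma membrane, was lower at p under 0.05, with 133, 129, 102 and 77.3 in control and 75.8, 54.3 and 63.3 in Mg-deficient replicates. ACA4, a calcium pump of small vacuoles, was lower too, with 209, 169.6, 182 and 179 in control and 109, 166 and 100 in Mg-deficient replicates. At p under 0.05 the background was 1.25% higher and 2.02% lower. Without Mg-deficient replicate 2 ACA4 was under p of 0.01 and ACA8 was no longer under 0.05. CAX2 and CAX5, further exchangers of the family, had log2 fold changes of 0.13 (95% interval -0.93 to 1.19) and -1.30 (-3.11 to 0.52). Neither sign is settled, since CAX5 had 0.03 without Mg-deficient replicate 2, and CAX2 had -0.27 without control replicate 1 and -0.30 without Mg-deficient replicate 1. The relay of CBL sensors and CIPK kinases, which sets vacuolar Mg storage through CBL2 and CBL3, had 0 of 7 members with p under 0.05. CBL2, CBL3, CIPK3, CIPK9, CIPK23 and CIPK26 had log2 fold changes between -0.66 and 0.63, and that of CIPK23 turned from -0.66 to 0.43 without Mg-deficient replicate 2.

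**Figure D3:**
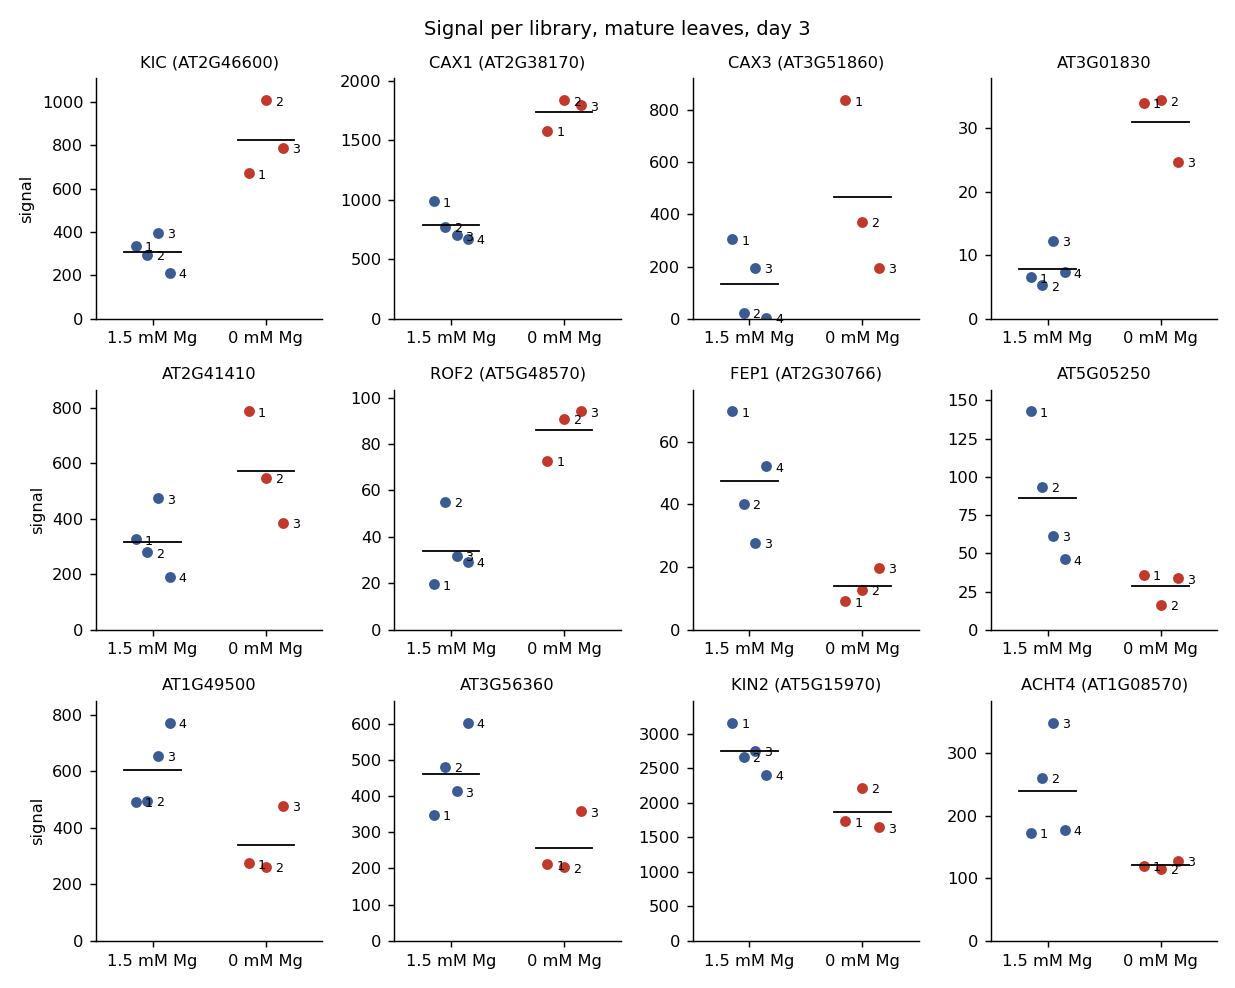
Signal of 12 genes in each library, in control (1.5 mM Mg) and Mg-deficient (0 mM Mg) mature leaves on day 3, with replicate numbers beside the points and bars at group means. KIC, CAX1, AT3G01830 and ROF2 do not overlap between groups, whereas CAX3 runs from 2.29 to 305 among the controls.

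The 300 bases before the annotated start of KIC, CAX1 and CAX3 are shown because these are the leading genes that act in calcium handling and were higher together. The sequences are from RefSeq, assembly TAIR10.1, are read 5′ to 3′ on the strand of the gene, and hold no annotated exon. KIC lies on the plus strand of chromosome 2 and its window is chr2:19135719-19136018. The CAX1 window is chr2:15993327-15993626 on the minus strand, and the CAX3 window is chr3:19239005-19239304 on the plus strand. Capitals mark heat shock elements (GAANNTTC).
KIC: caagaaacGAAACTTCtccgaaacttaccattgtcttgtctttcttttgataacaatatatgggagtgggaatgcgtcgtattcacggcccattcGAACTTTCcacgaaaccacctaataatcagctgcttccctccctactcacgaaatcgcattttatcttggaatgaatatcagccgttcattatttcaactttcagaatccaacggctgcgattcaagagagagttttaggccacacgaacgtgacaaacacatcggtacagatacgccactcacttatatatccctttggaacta
CAX1: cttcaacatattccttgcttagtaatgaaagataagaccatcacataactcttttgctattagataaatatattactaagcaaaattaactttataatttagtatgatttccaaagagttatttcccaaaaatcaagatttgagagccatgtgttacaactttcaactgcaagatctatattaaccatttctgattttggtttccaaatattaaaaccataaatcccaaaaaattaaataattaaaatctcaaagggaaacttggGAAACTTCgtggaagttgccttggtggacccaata
CAX3: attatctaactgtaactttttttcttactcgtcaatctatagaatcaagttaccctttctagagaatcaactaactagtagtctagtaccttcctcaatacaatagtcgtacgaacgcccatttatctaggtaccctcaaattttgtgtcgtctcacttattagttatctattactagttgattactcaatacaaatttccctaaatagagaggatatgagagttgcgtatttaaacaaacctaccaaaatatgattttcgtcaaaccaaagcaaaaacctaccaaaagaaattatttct

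The motifs searched, on either strand, were the CGCG box bound by calmodulin-binding transcription factors (ACGCGT or CCGCGT), the evening element of the clock (AAAATATCT), the ABRE of abscisic acid response (ACGTGTC), the W-box of WRKY factors (TTGACC or TTGACT), the G-box (CACGTG) and the heat shock element (GAANNTTC). KIC held 2 heat shock elements and CAX1 held 1, a word present in the same window of 11.5% of 27443 protein-coding genes. None of the other words was found in the 3 windows. Among the 20 higher genes the CGCG box was found in 1, the W-box in 4, the ABRE in 1 and the heat shock element in 3, beside 3.86, 32.3, 4.05 and 11.5% of all genes. Among the 27 lower nuclear genes the G-box was found in 3, beside 7.09% of all genes, and the W-box in 8.

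The same genes were measured again in libraries that did not enter this comparison. Expanding leaves on day 3 had 5 control and 4 Mg-deficient libraries, mature leaves on day 5 had 5 and 3, mature leaves on day 8 had 4 and 4, and roots on day 3 had 6 and 3. Libraries of different tissues on one day may share plants. KIC was higher in all of these comparisons and its groups overlapped only on day 8. It passed an adjusted p under 0.05 in expanding leaves, where its log2 fold change was 1.72 ± 0.34 (SE), in mature leaves on day 8 (1.23 ± 0.34) and in roots (0.94 ± 0.17). The share of all genes that passed in that direction was 0.17% in expanding leaves, 3.43% in mature leaves on day 8 and 0.0887% in roots. On day 5, when no gene passed in either direction (0%), its log2 fold change was 0.96 ± 0.21.

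CAX1 passed in expanding leaves (log2 fold change 1.7 ± 0.18) and had values of 0.96 ± 0.22 in mature leaves on day 5, 0.77 ± 0.28 on day 8 and 0.56 ± 0.21 in roots. CAX3 passed in expanding leaves (2.38 ± 0.49) and in mature leaves on day 8 (1.69 ± 0.24), and had 1.0 ± 0.27 on day 5 and 0.55 ± 0.34 in roots. AT2G41410 passed in mature leaves on day 8 (1.39 ± 0.34). So did AT3G01830, which was at 0 in all 4 control libraries of that day and read 12.8 to 61.8 in the Mg-deficient ones. The control libraries of day 8 were shallow, with 545998 to 1626707 reads on 6908 to 14881 genes, and the part of depth in the day 8 results was not tested. No difference between the log2 fold change of mature leaves on day 3 and that of another tissue or day passed an adjusted p under 0.05 for these 5 genes. The smallest of those adjusted p values was 0.23, for AT3G01830 against day 8, so unequal responses were not resolved and equal ones not shown. Over all genes 74 such differences passed against mature leaves on day 8 (0.579%) and 0 against each of the other 3 comparisons.

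Of the 20 higher genes, 15 had the same sign on day 5 of mature leaves, where 48.3% of all genes were positive. On day 8 it was 17 of 18 tested, but there 76.5% of all genes were positive. It was 16 of 20 in expanding leaves (52.8% of all genes) and 10 of 17 in roots (51.5%). On day 8, 6 of these genes passed an adjusted p under 0.05 in the same direction, namely KIC, CAX3, AT3G01830, AT2G41410, GILP and AT2G25650. In expanding leaves they were KIC, CAX1 and CAX3, and in roots KIC. Of the 28 lower genes, 19 of 28 were negative on day 5, 14 of 25 on day 8, 18 of 27 in expanding leaves and 19 of 24 in roots, where 51.7, 23.5, 47.2 and 48.5% of all genes were negative. None of the 28 passed an adjusted p under 0.05 as lower in any of these comparisons. The background of such passes was 0.173% on day 8, 0.0589% in expanding leaves and 0.112% in roots.

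**Figure D4:**
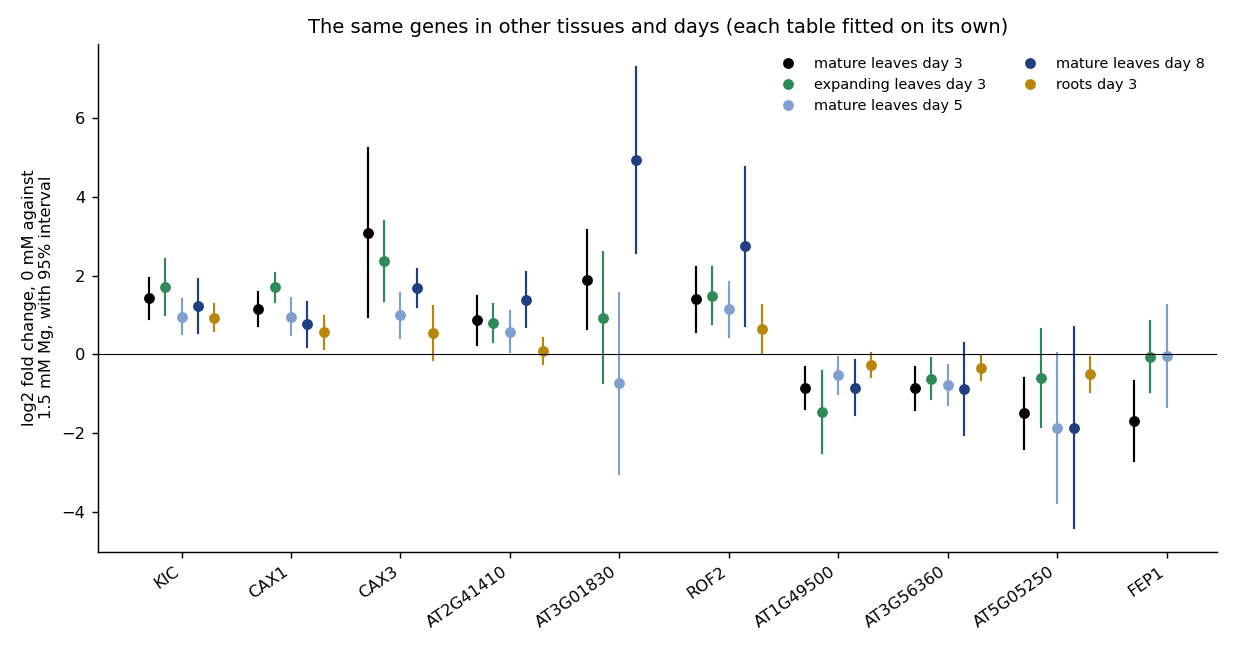
Log2 fold change with its 95% interval for 10 genes in mature leaves on day 3 (black) and in 4 other comparisons, each fitted on its own libraries. KIC, CAX1, CAX3 and ROF2 are above 0 in all 5 comparisons, and AT1G49500, AT3G56360 and AT5G05250 are below 0 in all 5, with intervals that reach 0 in some.

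Heat shock genes held the next of the higher genes. ROF2 (AT5G48570), an immunophilin and co-chaperone induced by heat, read 19.6, 55.2, 31.8 and 29.3 in control and 72.8, 90.8 and 94.0 in Mg-deficient replicates. The groups did not overlap, and the log2 fold change was 1.40 ± 0.39 (SE). Of 15 members of the list of heat shock proteins and their regulators, 4 were higher at p under 0.05 and none lower. The shares of all genes were 1.25% and 2.02%, and the list was drawn up with earlier results of these data known. The 4 members were ROF2, HSP17.6II and AT2G29500, of which the last 2 are small heat shock proteins, and HOP3, a co-chaperone. AT2G29500 read 1.07 to 13.6 in control leaves and 20.8 to 45.4 in Mg-deficient leaves. HSP17.6II read 0.04 to 12.2 and 12.8 to 20.8. The list's median log2 fold change was 0.35, and 1 of its 15 members had an interval within a factor of 2. Without Mg-deficient replicate 2, HOP3 was no longer under 0.05 and the other 3 were. Without Mg-deficient replicate 1, neither HSP17.6II nor AT2G29500 was. HSP17.6II also lost its place without Mg-deficient replicate 3, control replicate 1 or control replicate 4. ROF2 stayed under 0.05 whichever library was left out. In expanding leaves on day 3 ROF2 had a log2 fold change of 1.49 ± 0.35 with an adjusted p of 0.094.

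The other higher genes had varied functions. AT2G25650, annotated as a storekeeper-related DNA-binding protein, read 25.7 to 36.5 in the controls and 69.3 to 89.6 in the Mg-deficient libraries, and its log2 fold change of 1.23 ± 0.35 (SE) kept a p under 0.01 when any single library was left out. KIC and CAX1 were the only other genes of the 48 that did so. The locus of AT2G25650 overlaps AT2G25640 on the same strand, and whether reads were shared was not tested. At p under 0.05 the removal of a single library cost 5 of the 48 genes their place, among them AT2G41410 and MYB111 without Mg-deficient replicate 1. Of the 36 genes taken from the lists for their small p that had a p between 0.01 and 0.05, 33 lost theirs on the removal of at least 1 library. GSL8, a callose synthase needed for cytokinesis and plasmodesmata, read 30.3 to 64.9 and 68.3 to 150.2. REIL1, a maturation factor of the large ribosomal subunit, read 4.3 to 19.7 and 23.3 to 70.7. AT1G26370, an RNA helicase picked out after its values were seen, read 1.13 to 4.16 in control libraries and 14.8, 67.9 and 13.8 in Mg-deficient ones, with Mg-deficient replicate 2 far above the others. Its log2 fold change was 2.74, or 2.02 without that library.

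MYB111, an activator of flavonol synthesis, read 29.1, 32.4, 16.5 and 36.5 in control and 95.6, 45.3 and 63.3 in Mg-deficient replicates, a log2 fold change of 1.21 ± 0.42 (SE). TT5, chalcone isomerase of the same pathway, read 11.3 to 35.3 and 35.6 to 58.5 and was higher at p under 0.05, though not without Mg-deficient replicate 2. The 7 tested genes of anthocyanin and flavonol synthesis had a median log2 fold change of 0.45, and none was lower at p under 0.05. At that threshold 1.25% of all genes were higher and 2.02% lower. SR45a, a splicing regulator of light and heat stress, read 66.7 to 163 in control libraries and 191 to 262 without Mg. GILP, a membrane protein with a LITAF domain, read 74.5 to 153 and 176 to 267. AT1G13160, AT1G30320, AT5G24060 and AT4G39925 did not overlap between groups either, with log2 fold changes of 1.36, 1.93, 1.12 and 2.5. That of AT4G39925 was 1.62 without control replicate 1.

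Among the 28 lower genes, FEP1 is a known regulator. FEP1 (AT2G30766) encodes a short peptide that switches on iron uptake genes and moves between shoot and root. It read 69.7, 40.3, 27.7 and 52.1 in control and 9.13, 12.7 and 19.8 in Mg-deficient replicates. All 3 Mg-deficient libraries were below all controls, and the log2 fold change was -1.69 ± 0.48 (SE), or -1.66 without Mg-deficient replicate 2. Its locus overlaps AT2G30760 and AT2G30770 on the other strand. In expanding leaves on day 3 and mature leaves on day 5 its log2 fold changes were -0.05 ± 0.43 and -0.04 ± 0.62.

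The iron deficiency list had 15 members tested, of which FEP1 was lower at p under 0.01 and AT1G47395 and AT1G47400 were lower at p under 0.05, against 0.186% and 2.02% of all genes. These neighbouring genes read 61.7 to 144 and 32.5 to 94.8 in control libraries, and 20.1 to 70.1 and 2.80 to 51.5 in Mg-deficient ones. Without Mg-deficient replicate 2 their log2 fold changes were -0.50 and -0.53 and neither was under 0.05. Of the genes that store iron, VTL2, a vacuolar iron transporter, read 0.07 to 11.2 in control leaves and 9.87 to 33.7 in Mg-deficient leaves. FER1, the main leaf ferritin, read 31.8 to 50.5 and 44.5 to 98.0. Both were higher at p under 0.05, beside 1.25% of all genes. FER1 was not under 0.05 without Mg-deficient replicate 2. VTL2 was not under 0.05 without Mg-deficient replicate 1 or control replicate 1 or 2. Without control replicate 1 the log2 fold change of VTL2 was 1.59, beside 2.23. FER4 and FER3 had log2 fold changes of 0.55 (95% interval -0.23 to 1.33) and 0.02 (-0.49 to 0.52), the latter with either sign as single libraries were left out. FER1 on day 8 had a log2 fold change of 3.65 ± 1.01 and passed an adjusted p under 0.05, and the difference from day 3 had an adjusted p of 0.18.

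AT5G05250 and AT3G56360 are uncharacterized, and AT1G49500 is annotated as like a subunit of the transcription factor TFIID. AT5G05250 read 143, 93.4, 61.6 and 46.1 in control and 35.9, 16.5 and 33.7 in Mg-deficient replicates, a log2 fold change of -1.50 ± 0.43 (SE). AT1G49500 read 492, 495, 654 and 772 and then 274, 262 and 478, a log2 fold change of -0.86 ± 0.25. AT3G56360 read 348 to 603 and 203 to 357, with a slight overlap, and its log2 fold change was also -0.86. It was picked out after its values were seen, since groups that overlap fall outside the naming rule. These 3 genes were negative in all 4 other comparisons, at -0.50 to -1.87, -0.27 to -1.46 and -0.34 to -0.88 on the log2 scale.

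Several lower genes act in metabolism or signalling. ACHT4, an atypical thioredoxin of the chloroplast, read 172, 260.4, 348 and 177 in control and 119.7, 115 and 128 in Mg-deficient replicates, with controls far more spread than the Mg-deficient ones. SHM3, a plastid serine hydroxymethyltransferase, read 83.5 to 105 and 42.7 to 52.7, a log2 fold change of -0.94 ± 0.30. IPP2, an isopentenyl diphosphate isomerase that supplies isoprenoid synthesis, read 109.9 to 121 and 54.2 to 76.8, a log2 fold change of -0.90 ± 0.29. Without Mg-deficient replicate 2 it was -1.05.

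SK32, a shaggy-like kinase of the brassinosteroid pathway, read 178 to 265 in the controls and 88.9 to 138 in the Mg-deficient libraries. AT1G29160, a Dof-type zinc finger factor, read 27.7 to 54.6 and 8.17 to 13.8. BAM2, a receptor kinase, read 26.7 to 35.5 and 1.43 to 18.8, and its log2 fold change of -2.09 was -1.28 without Mg-deficient replicate 2. SCPL13, a serine carboxypeptidase-like protein with close relatives beside it in the genome among which reads may be shared, read 82.9, 86.3, 49.3 and 86.6 and then 35, 13.1 and 37.6. Its log2 fold change of -1.48 ± 0.42 shrank to -1.01 without Mg-deficient replicate 2. The largest negative value was that of AT5G04480, a glycosyltransferase picked out for this, at -3.05 ± 0.88, with 6.85 to 37.8 in control libraries and 0.07 to 4.39 without Mg. It was -2.41 without Mg-deficient replicate 2. AT1G62510, AT3G25805, AT4G11211, AT3G51510 and AT4G13270 also did not overlap between groups, with log2 fold changes of -2.09, -1.17, -1.47, -0.69 and -1.17. That of AT1G62510 was -1.30 without Mg-deficient replicate 2.

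No known Mg transporter had a p under 0.05. The MRS2 family carries Mg across plant membranes and MHX1 exchanges Mg for protons at the vacuole. That holds for 9 genes tested and for either direction. MRS2-4 read 22.6, 16.0, 12.3 and 33.2 in control and 21, 37.7 and 30.7 in Mg-deficient replicates, so the groups overlapped. Its log2 fold change was 0.53, with an interval from -0.53 to 1.60. MRS2-2, MRS2-3, MRS2-5, MRS2-7 and MRS2-10 had log2 fold changes of 0.22, -0.14, 0.63, 0.13 and -0.78. The sign turned for MRS2-3 (0.33) and MRS2-7 (-0.38) without Mg-deficient replicate 2.

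MRS2-1 and MHX1 had log2 fold changes of -0.36 (95% interval -1.22 to 0.51) and -0.26 (-1.06 to 0.53), the latter 0.09 without Mg-deficient replicate 3. MRS2-11, the member of the chloroplast envelope, read 47.2, 47.8, 20.6 and 33.4 in control and 21, 0.42 and 62.4 in Mg-deficient replicates, with Mg-deficient replicate 2 near 0. Its log2 fold change was -1.53, or 0.04 without that library. MRS2-2 was the single gene of the 9 whose interval excluded a change by a factor of 2, at -0.41 to 0.85. The other 8 had mean signals of 8.86 to 64.7 and wider intervals. In the other 4 comparisons none of these genes, where tested, passed an adjusted p under 0.05 in either direction. SOS1, a sodium and proton exchanger of the plasma membrane, had a log2 fold change of 0.37 and was not under 0.05 either.

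Among 16 tested genes that the study listed as putative Mg transporters, AT4G29870 and PRCE2 were lower at p under 0.05. The share of all genes lower at that threshold was 2.02%. AT4G29870 and PRCE2 had log2 fold changes of -1.18 and -0.64. AT4G29870 read 46.0 to 78.9 in control leaves and 14.2 to 51.6 in Mg-deficient leaves. Neither was under 0.05 without Mg-deficient replicate 2. The list's median log2 fold change was -0.48, and 2 of 16 intervals lay within a factor of 2.

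All 20 tested genes of carbon fixation had intervals within a factor of 2, with log2 fold changes from -0.24 to 0.36, and none had a p under 0.05. For photosystem and electron transport subunits it was 28 of 29, with none at p under 0.05 and a median log2 fold change of -0.07. Those lists have median signals of 1864 and 2631, in the range where 95.4% of all genes had such intervals. The summed signal of photosystem subunits was 5.94 to 7.58% of the total in control leaves and 5.62 to 7.62% in Mg-deficient ones.

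Light harvesting antenna proteins, which bind chlorophyll around the reaction centres, had 17 of 21 members below 0, beside 8079 of all 15079 genes, and a median log2 fold change of -0.23. LHCB3 and LHCA4 were lower at p under 0.05, against 2.02% of all genes, and none was higher. LHCB3 read 1292, 1028, 839 and 1271 in control and 631, 802 and 719.6 in Mg-deficient replicates, a log2 fold change of -0.61 ± 0.21 (SE). LHCA4 read 2372, 2585, 2370.1 and 2582 and then 1605, 1958 and 1593, a log2 fold change of -0.53 ± 0.19. Neither gene's groups overlapped, and without Mg-deficient replicate 2 the values were -0.69 and -0.63, both under p of 0.01. In expanding leaves on day 3 the log2 fold changes were -0.38 ± 0.16 and -0.51 ± 0.14. On day 5 of mature leaves LHCB3 had 0.74 ± 0.22, and its difference from day 3 had an adjusted p of 0.46.

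Of 23 chlorophyll synthesis genes, HEMG2 alone, a protoporphyrinogen oxidase, had a p under 0.05 and was lower, beside 2.02% of all genes. HEMG2 read 34.9 to 84.7 in the controls and 12.8 to 24.0 in the Mg-deficient libraries. Its locus overlaps AT5G14210 on the same strand, and without Mg-deficient replicate 3 it was not under 0.05. HEMA1, which commits glutamate to the pathway, had a log2 fold change of 0.47 (95% interval -0.12 to 1.07). None of 14 tested chlorophyll breakdown genes had a p under 0.05, and 12 of them were below 0.

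Among 28 genes of starch and sucrose metabolism none had a p under 0.05, and the median log2 fold change was 0.02. Of 20 sugar transporters 17 were below 0, beside 8079 of all 15079 genes. SUC2, the sucrose carrier that loads the phloem, read 505, 497, 625 and 442 in control and 359, 317 and 376 in Mg-deficient replicates, a log2 fold change of -0.55 ± 0.21 (SE). SWEET12, which releases sucrose beside the phloem, read 194 to 313 and 149 to 192, without overlap, and had a log2 fold change of -0.37 (95% interval -0.90 to 0.16). STP14, a galactose carrier, had a log2 fold change of -1.40. SUC2 and STP14 were lower at p under 0.05, beside 2.02% of all genes, and without Mg-deficient replicate 2 neither was. SUC2 is also a marker of phloem companion cells, and the other 12 vascular markers summed to 1181 to 1532 in control libraries and 1039 to 1432 without Mg, an overlap. The part of vascular cells in the lower SUC2 signal was not tested, and in tissue samples fewer cells of a type and less RNA per cell cannot be told apart.

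Of 10 cold response genes tested, 3 were lower at p under 0.05, against 2.02% of all genes. A log2 fold change below 0 was seen in 9 of them, beside 8079 of all 15079 genes, and the median log2 fold change was -0.51. In 6 of the 10 the groups did not overlap in the lower direction, against 2.66% of all genes. They include CBF2, whose lowest control value is near 0. KIN2, a small protein of cold and drought response, read 3165, 2671, 2756 and 2411 in control and 1733, 2222 and 1644 in Mg-deficient replicates, a log2 fold change of -0.57 ± 0.20 (SE). COR15A, a chloroplast protein that protects membranes from freezing, read 438, 180.2, 184 and 197 and then 94.8, 137 and 153.

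RD29A, induced by cold and drought, read 278 to 372 in control leaves and 166 to 232 in Mg-deficient leaves. ERD10 and COR47, dehydrins, did not overlap either, with log2 fold changes of -0.33 each. CBF2, a factor that switches on cold genes, read 0.13 to 23.8 in control libraries and was at 0 in all Mg-deficient ones. A signal of 0.13 is a fraction of a read and can come from the adjustment of 0 reads. The lack of overlap for CBF2 may therefore not be a difference in reads. KIN2, COR15A and RD29A were the members under 0.05, also without Mg-deficient replicate 2. Without Mg-deficient replicate 1 COR15A and RD29A were not, and COR15A was not without control replicate 1. In expanding leaves KIN2 had a log2 fold change of -0.83 ± 0.18 and COR15A of -0.92 ± 0.25. The list was drawn up with earlier results of these data known, so its direction is given as a description.

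Of 21 antioxidant enzymes 2 were higher at p under 0.05 and none was lower, against 1.25% and 2.02% of all genes. CAT2, the leaf peroxisome catalase, read 686, 465, 479 and 580.1 in control and 764, 734 and 1062 in Mg-deficient replicates, a log2 fold change of 0.62 ± 0.22 (SE). GR1, a glutathione reductase, read 23.1 to 57.3 and 57.7 to 72.3, and its locus overlaps AT3G24180 on the same strand. Without Mg-deficient replicate 3 neither CAT2 nor GR1 was under 0.05. GR1 was not under 0.05 without Mg-deficient replicate 1 or control replicate 2 or 4 either. The list's median log2 fold change was 0.01. On day 8 CAT2 had a log2 fold change of 1.49 ± 0.38 and passed an adjusted p under 0.05. The glutathione S-transferases and glutaredoxins had 0 of 11 members with p under 0.05 and a median log2 fold change of 0.28.

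None of 24 systemic acquired resistance genes of the study, none of 13 salicylic acid regulators, none of 13 abscisic acid and osmotic stress genes and none of 21 circadian clock genes had a p under 0.05. Of 21 jasmonate genes, AOC1, an allene oxide cyclase, and ORA59, a transcription factor, were higher at p under 0.05, beside 1.25% of all genes. Their log2 fold changes were 1.8 and 2.12. Without Mg-deficient replicate 2 these were 1.49 and 1.37 and no longer under 0.05. Of 13 senescence genes SAG21 alone had a p under 0.05 and was higher, beside 1.25% of all genes. It read 239 to 608 in the controls and 466 to 805 in the Mg-deficient libraries. The 13 ER protein folding genes had 12 members above 0, none at p under 0.05 and a median log2 fold change of 0.17.

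Among mineral transporters, ZIP9, a zinc and iron carrier, read 667, 601, 472 and 441 in control and 255, 430.1 and 387 in Mg-deficient replicates. MTP11, a manganese carrier, read 7.34 to 14.3 and 17.5 to 41, and NAS2, a nicotianamine synthase, read 322 to 414 and 479 to 553. APR2, which reduces sulfate, read 225 to 304 and 330 to 598. All 4 had a p under 0.05, a threshold at which 1.25% of all genes were higher and 2.02% lower. Without Mg-deficient replicate 2 only ZIP9 was under 0.05. ZIP9 in turn was not under 0.05 without Mg-deficient replicate 1 or control replicate 1 or 2. Its log2 fold change was -0.62, or -0.40 without Mg-deficient replicate 1. None of 16 phosphate genes had a p under 0.05, although SPX1, SPX2 and MGD3, genes of phosphate starvation, were higher without overlap (2.18% of all genes), with log2 fold changes of 1.04, 0.75 and 1.71. None of 16 aquaporins and none of 9 nitrate genes had a p under 0.05.

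**Figure D5:**
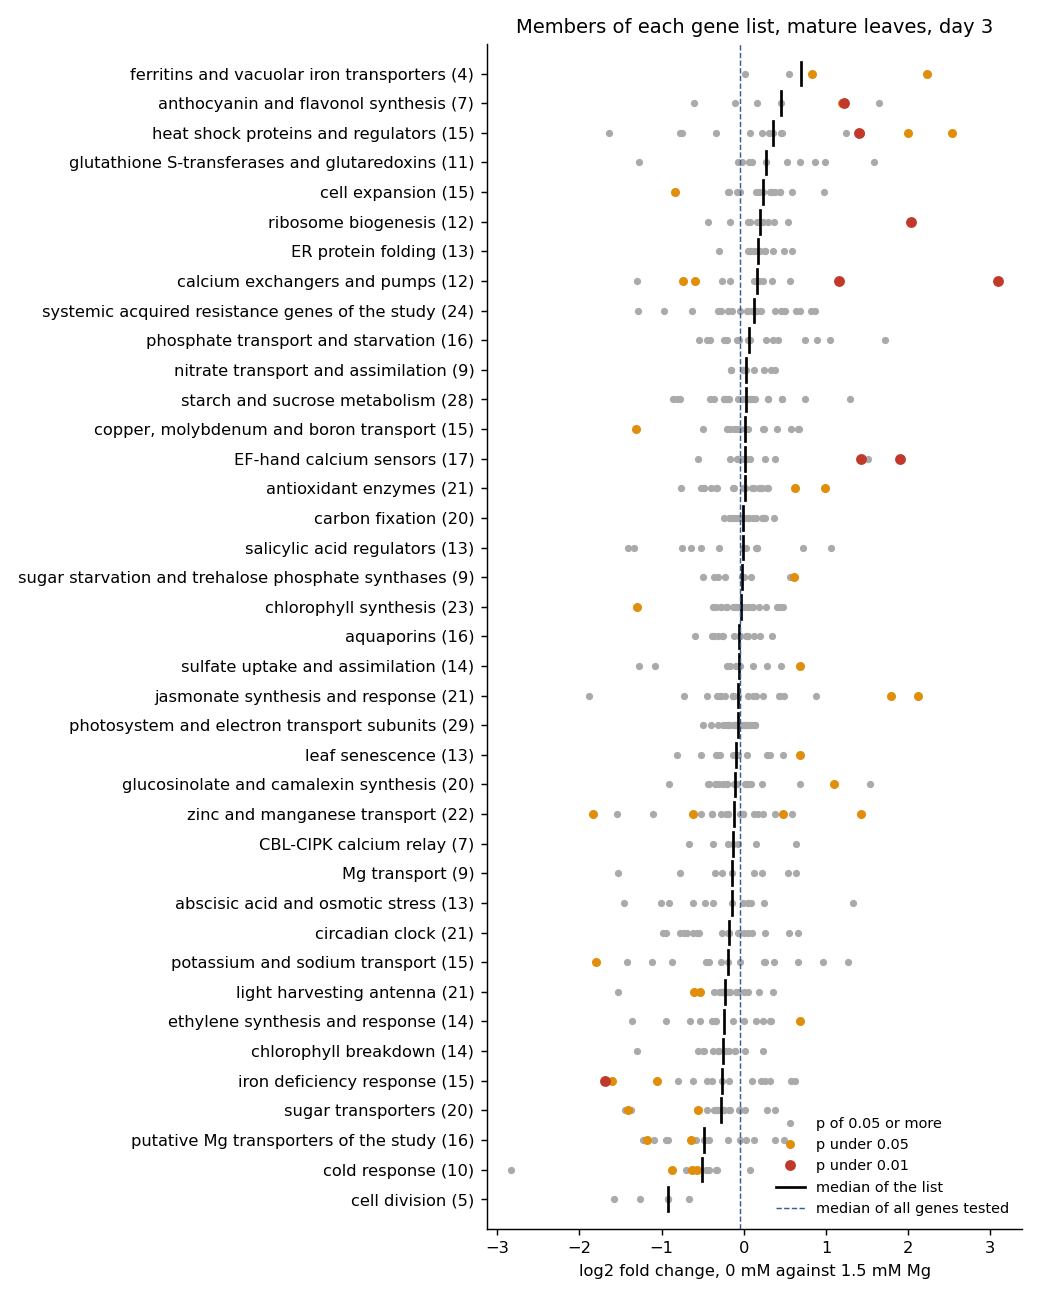
Log2 fold change of each tested member of 39 gene lists, with the number tested in brackets, the median of each list as a black bar and the median of all genes as a dashed line. Orange points are members with p under 0.05 and red ones with p under 0.01, and most lists hold none or a few of them.

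Summed signals were compared for 11 groups of genes. The exact permutation test of 3 against 4 libraries took its two-sided p from the smaller tail. In that form it could not go below 0.057, so no sum could reach 0.05, and the values are given alone. The sums overlapped between the treatments for all groups except the markers of meristem and leaf primordium. Those 4 genes summed to 166 to 226 in control libraries and 234 to 271 without Mg. AS2, a member below the minimum signal, was near 0 in all controls and read 25.5 in Mg-deficient replicate 2. For each of the tested members, AS1, YAB1 and YAB3, the groups overlapped. Chloroplast-encoded genes took 1.99 to 3.09% of the signal in control leaves and 1.98 to 2.42% in Mg-deficient ones. Cell division genes were scarce, with 5 of 17 reaching the minimum signal, all 5 with log2 fold changes below 0 and none with p under 0.05.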

How the data were processed

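RNA of mature leaves was sequenced as strand-specific 3′ BrAD-seq libraries. Alignment to TAIR10 and counting were done by the authors, who adjusted counts in edgeR to a common library size, and the deposited signal is this adjusted count. Groups came from the labels. Genes averaging a signal of 5 or more were tested as log2(signal + 1) in limma 3.58.1 (R 4.3.3, empirical Bayes with trend, two-sided, Benjamini-Hochberg adjustment over all genes tested). Fold changes on this scale understate low genes. The 7 libraries alone entered the fit, and every other tissue or day was fitted on its own table. Whole reads were recovered within a relative tolerance of 0.001 and served for depth. Named genes had p under 0.01, averaged 20 or more and did not overlap between groups (up to 15 per direction), or were up to 4 list members of smallest p, unless said otherwise. Members and lists were chosen with earlier results of these data known. Replicates are composites of plants, and p-values measure the spread between them. The fit was tested on simulated data. Alternatives were another pseudocount, filter, scaling, library weights, voom, a replicate block and the removal of each library. Sequences are from RefSeq TAIR10.1.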

Additional observations from a re-analysis of the deposited data

Results flagged for a closer look

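In the control libraries of 4 genes, 1 library lay far from the others, measured as its gap to the nearest library over the range of the group, and exceeded the 95% critical value of Dixon for 4 samples. The ratio was 0.901 for SCPL13, whose control replicate 3 was low (49.3, others 82.9 to 86.6), and 0.866 for AT2G25650, whose control replicate 3 was also low (25.7, others 35 to 36.5). It was 0.942 for AT1G29160 (control replicate 1 at 54.6, others 27.7 to 29.3) and 0.913 for the chloroplast-encoded ATCG00550 (control replicate 1 at 162, others 69.0 to 77.0). Chance alone gives about 1 such group in 20, and 59 control groups were checked.

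TFIIB, a general transcription factor, differed by -1.95 on the log2 scale on day 3 and by 3.32 in mature leaves on day 8. The difference was -5.26, with an adjusted p of 0.046 in a t-test on the combined SEs of both limma fits. TFIIB read 24.1 to 52.5 in the controls and 1.47 to 18.1 without Mg on day 3, and without Mg-deficient replicate 2 its value was -1.01. The control libraries of day 8 were shallow, and the part of depth in this difference was not tested.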

How the results depend on the processing

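Beside 20 higher and 28 lower genes, a pseudocount of 0.25 gave 12 higher, no filter 44 and 50, a filter at 20 gave 8 higher, library weights 43 and 48, and a robust trend 43 lower. Leaving out 1 library gave 14 to 25 higher and 13 to 154 lower genes. The lower count was 154 without Mg-deficient replicate 3, 105 without Mg-deficient replicate 1, and 17, 13 and 16 without control replicates 1, 2 and 3. Scaled whole reads, chosen after seeing the data, gave 13 higher, and leaving out both libraries that stand apart, chosen likewise, gave 30 and 38. Genes past an adjusted p under 0.05 numbered 1 with no filter (KIC), 2 with library weights (KIC and CAX1), and 0 otherwise. Of 4151 values of single genes under alternatives, 72, of 38 genes, had the opposite sign, and none of these was among the 48 genes. With both libraries that stand apart left out the sign turned for HMA4 (0.076), RD20 (0.075), MRS2-11 (0.18), RVE4 (-0.035), CAX5 (0.12), KAT2 (0.062), CYP89A9 (0.13), MCM5 (0.26), LSU1 (0.55), PBS3 (0.15), RAN1 (-0.13), AT4G09640 (0.077), ELF3 (0.076), PRR7 (0.13), CLH1 (0.028), AT3G26670 (-0.0084), NIMIN1 (-0.63), AT1G34470 (0.27), AT4G38730 (0.10), AT2G04305 (0.051), TPS5 (0.12), CIPK23 (0.78), TPS8 (0.31), ACA1 (-0.16), MRS2-3 (0.47), MRS2-7 (-0.38), AT1G71900 (-0.52) and AT2G21120 (-0.79). With a replicate block the sign turned for GSTF6 (-0.0019). With library weights the sign turned for CIPK23 (0.28), TPS8 (0.13), MRS2-3 (0.22), MRS2-7 (-0.11), AT1G71900 (-0.43) and AT2G21120 (-0.37). With voom on whole reads the sign turned for AT2G21120 (-0.019). With a pseudocount of 5 the sign turned for AT5G11960 (0.032). When 1 library was left out, the lowest and highest values were -0.10 and 0.48 for ACA1, -0.079 and 0.46 for ACA10, -1.61 and 0.24 for AT1G34470, -0.49 and 0.49 for AT1G71900, -0.43 and 0.32 for AT2G21120, -0.93 and 0.22 for AT4G13800, -1.56 and 0.24 for AT4G38730, -0.58 and 0.63 for AT5G11960, -0.30 and 0.49 for CAX2, -2.01 and 0.035 for CAX5, -1.28 and 0.43 for CIPK23, -0.015 and 0.56 for CNX1, -1.35 and 0.10 for ELF3, -0.11 and 0.14 for FER3, -0.0019 and 0.85 for GSTF6, -2.46 and 0.12 for LSU1, -0.65 and 0.093 for MHX1, -2.70 and 0.039 for MRS2-11, -0.58 and 0.33 for MRS2-3, -0.38 and 0.44 for MRS2-7, -0.17 and 1.56 for NIMIN1, -0.99 and 0.26 for PBP1, -1.33 and 0.047 for PRR7, -2.33 and 0.11 for RD20, -0.39 and 0.00052 for TPC1 and -0.86 and 0.17 for TPS8. Differences from mature leaves on day 8 numbered 74, or 150 with a pseudocount of 0.25 and 19 with a filter at 20. Leaving out 1 library gave 10 to 150, with 10 without control replicate 3, 39 without control replicate 2, 21 without Mg-deficient replicate 2 and 150 without Mg-deficient replicate 1. Differences from expanding leaves numbered 0 to 2, with 2 without control replicate 4.

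The labels link samples of the groups only by a replicate number. Same-numbered libraries deviated from their group means with correlations of 0.06, 0.05 and -0.10. Such values cannot show whether libraries shared a batch. With a replicate block 37 genes were higher and 36 lower, and 0 passed adjustment. A count test on recovered reads was planned and was not run. Depth limits rare genes most.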
